A study of Mus musculus with 6 samples.

Results

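The immediate early genes Fos, Fosb, Jun, Junb, Egr1, Egr2, Egr3, Ier2, Dusp1 and Nr4a1 were examined in macrophages that carry or lack MSR1. These 10 genes were taken by symbol from a table of 52550 genes, and all 10 had enough counts to be tested, among 16402 tested genes. Bone marrow cells from MSR1 KO or MSR1 WT mice of the C57BL/6 strain were grown for 7 days in medium with 25 ng/ml M-CSF, which yields bone marrow-derived macrophages (BMDMs). The macrophages of both groups were then kept with bone marrow stem cells (BMSCs) for 48 h, with a transwell membrane between the cell types. Bulk RNA-seq gave 3 MSR1 KO and 3 MSR1 WT libraries. The labels describe MSR1 KO by genotype only, without the allele, and give neither the sex nor the age of the mice, nor whether each library came from its own mouse. The comparison asks how the transcriptome of co-cultured macrophages differs when MSR1, a scavenger receptor of macrophages, is missing.

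Immediate early genes are transcribed within minutes of a stimulus because their activators, such as SRF with its ternary complex factors and CREB, are already present and are switched on by phosphorylation. Many of their mRNAs decay quickly, so their level follows recent signalling, and most of their products are transcription factors that act on a later wave of genes. In macrophages they respond to M-CSF, adhesion and microbial products. FOS and JUN proteins pair to form AP-1, EGR proteins are zinc finger factors, NR4A1 is an orphan nuclear receptor, and DUSP1 removes phosphate from MAP kinases and so dampens the pathway that induces it.

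The libraries held 36143518 to 47417448 counts, and a gene at 0 counts could still be present at up to 0.0632 to 0.0835 CPM, the level of 3 counts, for counting error only (CPM are counts scaled to the TMM-adjusted size of the library). Msr1 (chromosome 8) was at 59.0, 45.8 and 43.0 CPM in MSR1 KO and at 183, 193 and 223 CPM in MSR1 WT, a log2 difference (the log2 fold change of MSR1 KO over MSR1 WT) of -2.02 ± 0.14 (SE, edgeR adjusted p = 0.0012). Msr1 was thus lower in every MSR1 KO library but was not absent from them. Macrophage markers such as Csf1r, Adgre1, Cd68 and Lyz2 were abundant in all 6 libraries, with a summed level of 23400 to 24470 CPM in MSR1 KO and 23560 to 26090 CPM in MSR1 WT. Of 10 macrophage markers 1 was called at an adjusted p under 0.05, Fcgr1, with a log2 difference of 1.14. Itgam (-0.32) was not called. The libraries also held stromal cell transcripts. Of 10 stromal markers, Pdgfra, Pdgfrb and Cxcl12 were lower in MSR1 KO (log2 fold changes of -1.19, -0.86 and -1.11, adjusted p from edgeR 0.014, 0.025 and 0.031), Thy1 was at 1.31 (adjusted p = 0.091), and the sum was 1200 to 1576 CPM in MSR1 KO and 1557 to 2012 CPM in MSR1 WT. The median log2 fold change of the 10 stromal markers was -0.38. No stromal marker was at 0 in any library. Neutrophil markers summed to 635.6 to 1040 CPM in MSR1 KO and 419.3 to 798.5 CPM in MSR1 WT, and 0 of 8 were called, with 1 at an unadjusted p under 0.05 in edgeR. Their largest log2 fold changes were in Ly6g (1.30), Camp (0.65) and Mpo (0.44). Cd3e, Cd3d and Ms4a1 had 0 to 19 counts and the erythroid gene Hbb-bs had 0 in every library, while Klrb1c of the T and NK cell list was called higher (1.39, edgeR adjusted p = 0.028). That list summed to 12.24 to 16.86 CPM in MSR1 KO and 3.326 to 10.1 CPM in MSR1 WT. The 4 B cell markers summed to 15.29 to 22.46 CPM over all libraries, almost all of it Cd79b, and the 5 erythroid markers to 0.0843 to 0.807 CPM, and neither list had a called gene. In bulk RNA, fewer cells of a type and less RNA per cell cannot be told apart.

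The promoters of the immediate early genes carry short response elements close to the start site, and these sequences are shown to make visible which CREB and AP-1 type letters the genes share. RefSeq windows of the 250 bases before the start on GRCm38.p6 were at hand for 7 of the 10 genes. They were searched on both strands for the cyclic AMP response element TGACGTCA (CRE), its first 5 bases TGACG, the related TGACATCA and TGCGTCA, and the AP-1 site TGACTCA. The following 5 windows are printed 5′ to 3′ on the strand of the gene, with matches to any of these letters in capitals.
Fos: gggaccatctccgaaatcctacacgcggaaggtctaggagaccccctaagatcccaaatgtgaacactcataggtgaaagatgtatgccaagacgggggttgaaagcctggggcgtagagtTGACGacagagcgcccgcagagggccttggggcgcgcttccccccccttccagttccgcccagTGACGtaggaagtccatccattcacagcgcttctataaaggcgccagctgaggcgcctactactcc
Fosb: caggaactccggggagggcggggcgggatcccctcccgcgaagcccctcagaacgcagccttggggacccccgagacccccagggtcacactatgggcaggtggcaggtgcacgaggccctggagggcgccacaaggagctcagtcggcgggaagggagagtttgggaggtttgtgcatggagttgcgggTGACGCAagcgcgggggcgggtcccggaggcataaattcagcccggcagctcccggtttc
Jun: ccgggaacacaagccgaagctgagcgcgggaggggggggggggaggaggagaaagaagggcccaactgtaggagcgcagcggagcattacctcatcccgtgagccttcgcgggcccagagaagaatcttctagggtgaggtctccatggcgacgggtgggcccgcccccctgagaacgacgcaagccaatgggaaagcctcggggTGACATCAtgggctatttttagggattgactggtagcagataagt
Dusp1: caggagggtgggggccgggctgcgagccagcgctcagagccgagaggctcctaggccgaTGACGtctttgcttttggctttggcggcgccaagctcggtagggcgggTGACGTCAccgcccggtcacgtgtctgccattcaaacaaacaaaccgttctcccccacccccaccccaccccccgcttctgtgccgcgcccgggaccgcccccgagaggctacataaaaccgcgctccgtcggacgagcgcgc
Nr4a1: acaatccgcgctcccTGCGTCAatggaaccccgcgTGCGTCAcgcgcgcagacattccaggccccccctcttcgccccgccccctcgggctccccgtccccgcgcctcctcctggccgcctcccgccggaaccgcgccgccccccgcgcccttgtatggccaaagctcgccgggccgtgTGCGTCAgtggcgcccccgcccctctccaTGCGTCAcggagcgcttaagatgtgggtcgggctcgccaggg
These windows lie at chr12:85473640-85473889 on the plus strand, chr7:19310046-19310295 on the minus strand, chr4:95052223-95052472 on the minus strand, chr17:26508473-26508722 on the minus strand and chr15:101266596-101266845 on the plus strand. Distances are counted from the RefSeq start, which lies 47 bases from the deposited start for Dusp1 and 6 bases from it for Fosb. The last 47 bases of the Dusp1 window thus lie within the gene as deposited. Dusp1 held the full CRE, from 143 to 136 bases before its RefSeq start, which 1.55% of all 32851 windows of RefSeq genes hold. Jun held TGACATCA 45 to 38 bases before its start, found in 2.93% of all windows. Nr4a1 held TGCGTCA at 4 places, the nearest 42 to 36 bases before the start, a motif that occurred in 1.75% of windows. Fosb held the same letters read from the other strand, from 60 to 54 bases before the start. TGACATCA was searched as a Jun-type site and TGCGTCA as an Nr4a1-type site, so finding them in Jun and Nr4a1 was no independent result. For these genes the shares of all windows only describe how common the letters are. The letters TGACG, which are part of the CRE and of TGCGTCA when read from the other strand, occurred in 5 of the 7 windows (Fos, Fosb, Junb, Dusp1 and Nr4a1) and in 17.8% of all windows. Fos also had TATAAA 33 to 28 bases before its start (12.4% of windows). Fosb and Nr4a1 each had the EGR-type letters GCGGGGGCG on one strand or the other (2.57% of windows). Neither TGACTCA (4.46% of windows) nor the CArG box of SRF (1.47%) matched in any of the 7 windows, which says only that these letters do not occur within 250 bases. The RefSeq starts of Junb and Egr2 lie 30 and 24 bases from the deposited starts. Egr2 had 5 RefSeq windows, and not all of them were searched. A match is a description of sequence and does not show that a factor binds there.

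None of the 10 genes differed between genotypes at an adjusted p under 0.05. Of the 10, 0 were higher and 0 lower by edgeR's quasi-likelihood test, adjusted by the Benjamini-Hochberg method over the whole table, where 2.25% of tested genes were called higher and 2.66% lower. The adjusted p ran from 0.2 for Egr3 to 0.92 for Dusp1. DESeq2 also called 0 of the 10, with a lowest adjusted p of 0.13. At an unadjusted p under 0.05 there were 3 genes (Fos, Egr3 and Ier2) in edgeR and 3 in DESeq2. These 3 were all higher in MSR1 KO and make 30% of the genes, against 18.9% of all tested genes in either direction. Under the study's definition of a DEG, a fold change above 1.5 with an unadjusted p under 0.05, Egr3 was the 1 gene that passed as higher, where 3.59% of tested genes did, and 0 passed as lower, where 5.05% did. The MSR1 KO and MSR1 WT libraries did not overlap for 1 of the 10 genes, again Egr3, which is 10% against 25.5% of all tested genes. The share without overlap was thus below that of tested genes in general. It rests on 1 of 10 genes, and the difference in shares was not tested. Mean CPM was higher in MSR1 KO for 8 genes and lower for Fosb and Egr2, and the median log2 fold change was 0.105, beside -0.00231 over all tested genes.

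**Figure D1:**
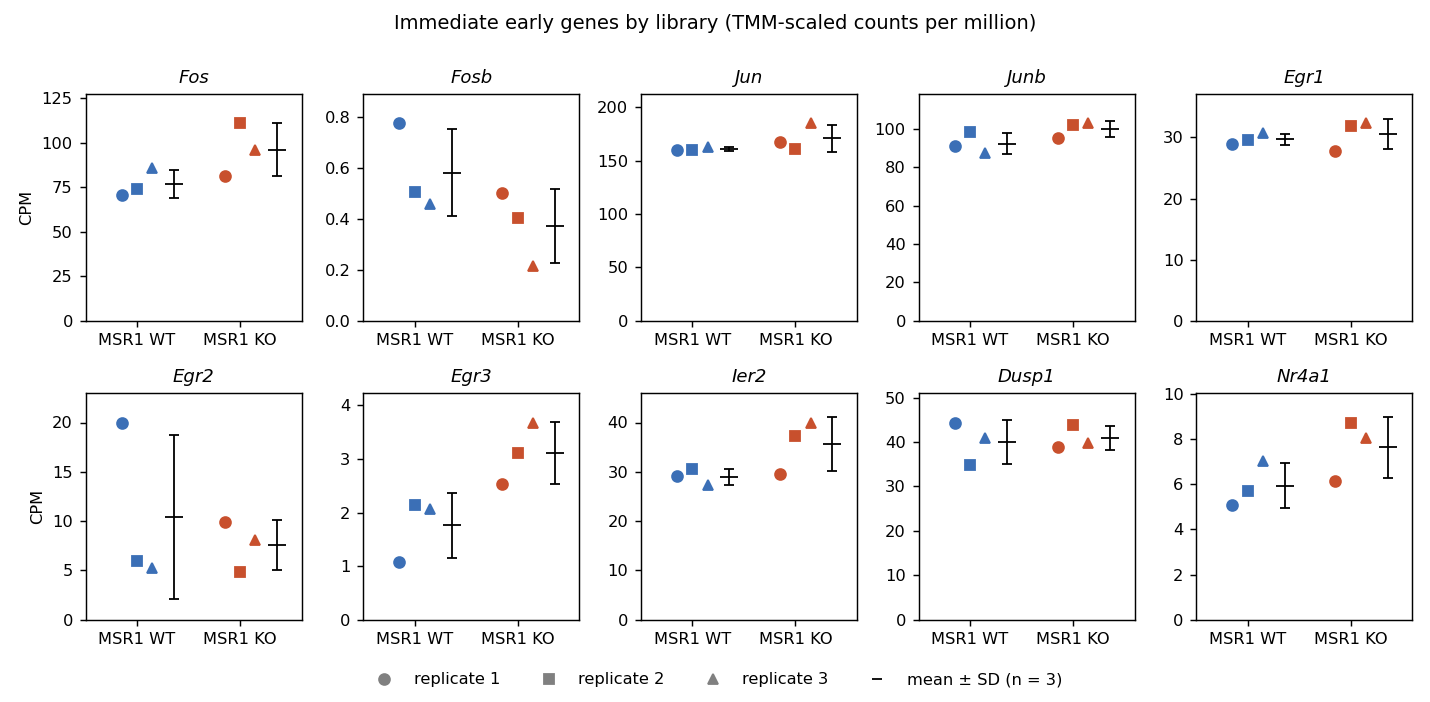
Level of each immediate early gene in CPM (y axis, from 0) in the MSR1 WT (blue) and MSR1 KO (red) libraries, where each point is a library and black bars give the mean ± SD of 3 libraries. The groups overlap in every panel but that of Egr3, and Egr2 in MSR1 WT replicate 1, at 20.0 CPM, stands above the other 5 libraries.

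None of the AP-1 genes Fos, Jun, Junb and Fosb passed the test. Fos (ENSMUSG00000021250.13, chromosome 12 from 85473890 to 85477273, plus strand) was at 81.4, 111 and 95.8 CPM in MSR1 KO and at 70.8, 74.3 and 85.8 CPM in MSR1 WT. The lowest MSR1 KO library thus lay below the highest MSR1 WT library. The means were 96.2 ± 15.0 and 77.0 ± 7.84 CPM (SD, n = 3 each), a log2 difference of 0.32 ± 0.13 (SE, 95% interval 0.03 to 0.61, edgeR adjusted p = 0.21).

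Jun (ENSMUSG00000052684.4, chromosome 4 from 95049034 to 95052222, minus strand) was at 168, 161 and 185 CPM in MSR1 KO and at 160, 160 and 163 CPM in MSR1 WT. The MSR1 WT libraries were nearly level with each other, with an SD of 1.55 CPM, and MSR1 KO replicate 2 lay between them. Its log2 difference was 0.09 (95% interval -0.08 to 0.26, edgeR adjusted p = 0.57). Junb (ENSMUSG00000052837.6, chromosome 8 from 84974484 to 84978718, minus strand) encodes a JUN family member that pairs with FOS proteins as well. It had 95.4, 102 and 103 CPM in MSR1 KO and 91.1, 98.4 and 87.6 CPM in MSR1 WT, a log2 difference of 0.12 (95% interval -0.06 to 0.29, edgeR adjusted p = 0.47). For both genes the interval left out a difference of 1.5-fold in either direction. Some exon bases of both are shared with a gene on the other strand, 232 bases of Jun (7.28%) with Junos and 173 bases of Junb (7.52%) with Prdx2. The strand setting of the counting is not given in the sources used here, so reads from these bases cannot be told apart.

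Fosb (ENSMUSG00000003545.3, chromosome 7 from 19302696 to 19310051, minus strand), a close relative of Fos, was at the limit of what this depth resolves. It had 18, 16 and 10 counts in MSR1 KO and 32, 24 and 19 in MSR1 WT. In CPM the means were 0.373 ± 0.145 and 0.581 ± 0.171 (SD, n = 3 each), and MSR1 KO replicate 1 lay above MSR1 WT replicate 3. The log2 difference of -0.65 had a 95% interval from -1.81 to 0.52 (edgeR adjusted p = 0.56), an interval that held both 0 and a 2-fold fall.

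None of the 3 EGR genes passed the test, and no difference between them was tested. Egr1 (ENSMUSG00000038418.7, chromosome 18), the best known zinc finger factor of the group, was at 27.8, 31.8 and 32.3 CPM in MSR1 KO and at 28.9, 29.5 and 30.7 CPM in MSR1 WT. The lowest library and the highest were both MSR1 KO. Its log2 difference was 0.04 (95% interval -0.17 to 0.25, edgeR adjusted p = 0.86), which leaves out a change of 1.5-fold.

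Egr2 (ENSMUSG00000037868.15, chromosome 10 from 67535475 to 67542188, plus strand), which is also induced during macrophage differentiation, varied most between libraries. It was at 9.91, 4.82 and 8.05 CPM in MSR1 KO and at 20.0, 6.01 and 5.30 CPM in MSR1 WT. MSR1 WT replicate 1 was thus 3.77 times the lowest library of its own group, and the SD of log2 CPM within MSR1 WT was larger than in 99.2% of genes with a mean of at least 1 CPM. The log2 difference was -0.46 ± 0.50 (SE, 95% interval -1.62 to 0.70, edgeR adjusted p = 0.70) and turned to 0.42 without MSR1 WT replicate 1. No direction can be given for Egr2.

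Egr3 (ENSMUSG00000033730.4, chromosome 14 from 70077203 to 70082614, plus strand), which is known as a target of NFAT in lymphocytes, had the largest log2 fold change of the 10 genes in size. Its counts were 91, 124 and 171 in MSR1 KO and 44, 102 and 85 in MSR1 WT. In CPM these were 2.53, 3.11 and 3.68 against 1.07, 2.15 and 2.06, so that every MSR1 KO library lay above every MSR1 WT library. The means were 3.11 ± 0.573 and 1.76 ± 0.6 CPM (SD, n = 3 each), a fold of 1.77 and a log2 difference of 0.82 ± 0.31 (SE, 95% interval 0.11 to 1.54, edgeR adjusted p = 0.20). MSR1 WT replicate 1, the library in which Egr2 was highest, held the lowest Egr3 value. Without it the log2 fold change of Egr3 was 0.56, and the gene no longer met the definition of a DEG. It also failed the definition without MSR1 KO replicate 2 and without MSR1 KO replicate 3.

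Of the other immediate early genes, Ier2 and Nr4a1 were higher on average in MSR1 KO and Dusp1 was nearly level. Ier2 (ENSMUSG00000053560.4, chromosome 8 from 84661331 to 84662852, minus strand), which encodes a nuclear protein of the early response, was at 29.5, 37.2 and 40.0 CPM in MSR1 KO and at 29.1, 30.6 and 27.3 CPM in MSR1 WT. MSR1 KO replicate 1 lay within the MSR1 WT range and the other two lay above it. The log2 difference was 0.29 ± 0.12 (SE, 95% interval 0.01 to 0.57, edgeR adjusted p = 0.24). Junb and Ier2 lie on the same chromosome as Msr1, at 45.3 and 45.0 Mb from it.

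Nr4a1 (ENSMUSG00000023034.6, chromosome 15 from 101266846 to 101274792, plus strand), the receptor also called NUR77, which acts in macrophages and in non-classical monocytes, was at 6.13, 8.72 and 8.05 CPM in MSR1 KO and at 5.07, 5.69 and 7.02 CPM in MSR1 WT. MSR1 KO replicate 1 lay below MSR1 WT replicate 3. Its log2 difference was 0.37 ± 0.19 (SE, 95% interval -0.08 to 0.81, edgeR adjusted p = 0.36).

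Dusp1 (ENSMUSG00000024190.6, chromosome 17 from 26505590 to 26508519, minus strand), the MAP kinase phosphatase whose promoter window holds the full CRE printed above, was at 38.9, 43.9 and 39.7 CPM in MSR1 KO and at 44.4, 34.8 and 40.9 CPM in MSR1 WT. Both the highest and the lowest library were MSR1 WT. The log2 difference was 0.03 (95% interval -0.22 to 0.28, edgeR adjusted p = 0.92), and its sign changed with the library size alone as the scale, so no direction is given. The deposited start and end of Dusp1 and Nr4a1 differ from those in GENCODE M21.

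**Figure D2:**
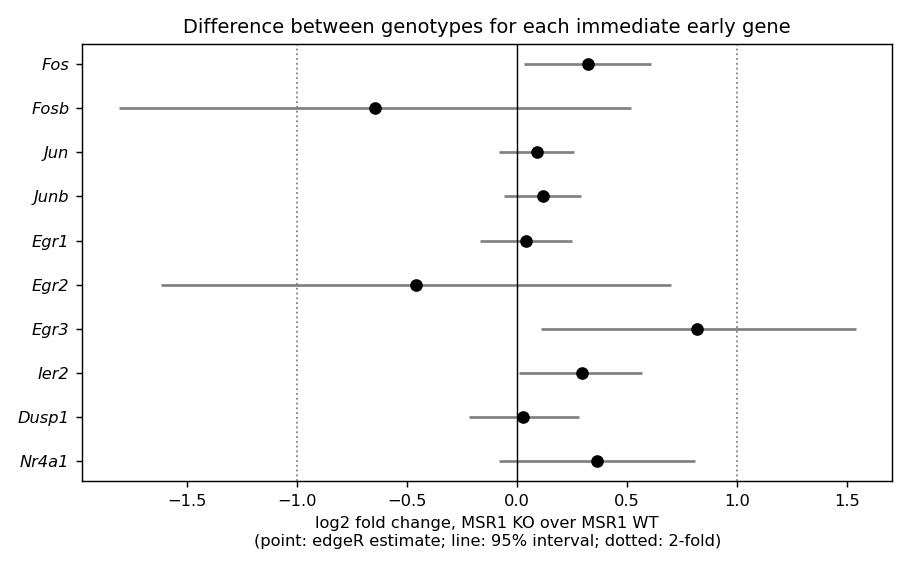
Log2 fold change of MSR1 KO over MSR1 WT (x axis) for each immediate early gene (y axis), with points for the edgeR estimate from 3 libraries per genotype and lines for its 95% interval. The lines of Fos, Egr3 and Ier2 lie to the right of 0, the other 7 hold 0, and those of Egr2 and Fosb are the widest.

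The precision differed between the genes. The 95% intervals held 0 for 7 of the 10 genes, left out a 2-fold difference for 7 and left out a 1.5-fold difference for 5. The intervals that reached past 2-fold were those of Fosb, Egr2 and Egr3. The biological coefficient of variation, edgeR's measure of the spread between libraries, had a median of 0.126 over the 10 genes and of 0.135 over the 13611 tested genes with a mean of at least 1 CPM. It was 0.0909 for Jun and 0.0932 for Junb but 0.429 for Egr2, 0.366 for Fosb and 0.274 for Egr3.

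To check the agreement of single libraries, the log2 CPM of each gene was set against its mean over the 6 libraries. MSR1 KO replicate 3 held the highest value for 5 genes (Jun, Junb, Egr1, Egr3 and Ier2), MSR1 KO replicate 2 for Fos and Nr4a1, and MSR1 WT replicate 1 for Fosb, Egr2 and Dusp1. MSR1 WT replicate 1 also held the lowest value for 4 genes (Fos, Jun, Egr3 and Nr4a1). The median deviation over the 10 genes was -0.03, 0.10 and 0.13 for MSR1 KO and -0.07, -0.07 and -0.01 for MSR1 WT. By this median, MSR1 KO replicate 1 lay among the MSR1 WT libraries. In MSR1 KO replicate 1, 4 of the 10 genes lay above their own mean, against 7 and 8 in the other replicates of MSR1 KO and 3, 2 and 5 in those of MSR1 WT. The summed level of the 10 genes was 460.1, 504.0 and 515.8 CPM in MSR1 KO and 451.2, 442.0 and 450.1 CPM in MSR1 WT, a sum in which Jun, Junb and Fos weigh most. By the sum, unlike the median, MSR1 KO replicate 1 lay above every MSR1 WT library.

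**Figure D3:**
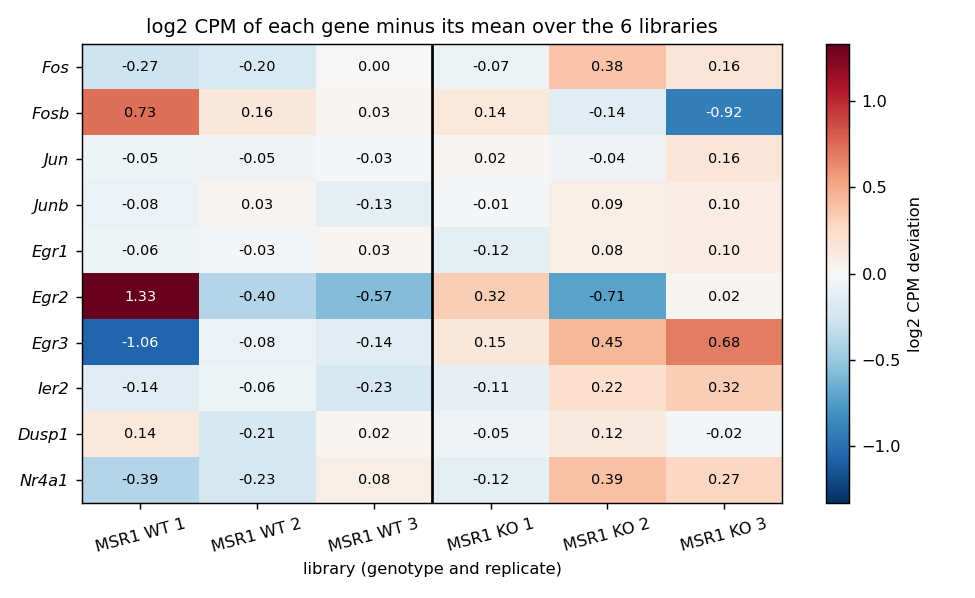
Log2 CPM of each immediate early gene (rows) in each library (columns) minus the mean of that gene over the 6 libraries, in colour and as printed values. MSR1 WT replicate 1 holds both the largest positive value (1.33 for Egr2) and the largest negative one (-1.06 for Egr3), and Fos, Ier2, Egr3 and Nr4a1 are above their mean in MSR1 KO replicates 2 and 3.

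Levels can be compared between genes once they are divided by exon length. In CPM per kb of exon, the order in MSR1 WT was Jun (50.4 ± 0.485), Junb (40.1 ± 2.40), Fos (32.7 ± 3.33), Ier2 (19.1 ± 1.08), Dusp1 (12.1 ± 1.47), Egr1 (6.63 ± 0.21), Egr2 (3.07 ± 2.44), Nr4a1 (1.69 ± 0.284), Egr3 (0.399 ± 0.136) and Fosb (0.093 ± 0.0274) (SD, n = 3 each). MSR1 KO gave the same order, with Jun at 53.7 ± 3.94, Junb at 43.6 ± 1.83 and Fos at 40.9 ± 6.37 CPM per kb (SD, n = 3 each). The mean levels of Junb and Fos in MSR1 KO lay within the SD of Fos, and so did those of Egr2 (2.23 ± 0.758) and Nr4a1 (2.17 ± 0.383) within the SD of Egr2. In MSR1 WT, Egr2 and Nr4a1 likewise lay within the SD of Egr2 of each other. Transcripts of these genes were thus present at 48 h of co-culture, with Jun, Junb and Fos highest and Fosb hardly detected.

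The other genes of the early response were described with 5 lists of 68 related genes, of which 67 were tested. Of these, 1 was higher (1.49%) and 4 were lower (5.97%) in MSR1 KO at an adjusted p under 0.05 by edgeR, beside 2.25% and 2.66% of all tested genes, and their median log2 fold change was 0.01. The 5 called genes were Zfp36, Ier5l, Errfi1, Cyr61 and Dusp4, and none of them is an AP-1, EGR or NR4A factor. All 5 calls were lost without MSR1 KO replicate 1 and without MSR1 WT replicate 1, where the adjusted p from edgeR for the 4 lower genes lay between 0.05 and 0.073 and their direction was kept.

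Of the 11 relatives in the AP-1 family, 0 were called by edgeR, with 5 at an unadjusted p under 0.05 (2 higher and 3 lower). Over all tested genes, 18.9% had an unadjusted p under 0.05 in either direction. The largest log2 fold changes were in Batf2 (1.10, adjusted p = 0.15), Fosl1 (-0.60, adjusted p = 0.12), which encodes FRA1, and Jdp2 (0.42, adjusted p = 0.09), which encodes a JUN dimerization partner. Of the EGR and NR4A relatives, 0 of 4 tested were called and 2 had an unadjusted p under 0.05 in edgeR. Nr4a3, a sister receptor of NR4A1, had 56, 54 and 99 counts in MSR1 KO and 16, 36 and 43 in MSR1 WT, a log2 difference of 1.20 (edgeR adjusted p = 0.15). The groups of Nr4a3 did not overlap, but its counts were low. The EGR corepressors Nab2 (-0.22) and Nab1 (0.15) were not called, and Egr4 had 0 counts in every library.

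In the list of 25 other early response genes, edgeR called 1 higher and 3 lower after adjustment, beside 2.25% and 2.66% of tested genes. Without adjustment, 12 of the 25 had p under 0.05 in edgeR (5 up in MSR1 KO and 7 down), beside 18.9% of tested genes. The groups did not overlap for 7 higher and 7 lower genes, beside 25.5% of tested genes in either direction. These differences in shares were not tested. Zfp36 (chromosome 7 from 28376784 to 28380253), which encodes tristetraprolin, a protein that promotes decay of AU-rich mRNAs, was at 188, 164 and 166 CPM in MSR1 KO and at 137, 120 and 131 CPM in MSR1 WT. Its log2 difference was 0.41 ± 0.084 (SE, edgeR adjusted p = 0.034), and it lost its call when any 1 of the 6 libraries was left out. Zfp36 shares 125 exon bases (3.6%) with Gm44710 on the other strand, which had 31 to 84 counts.

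Ier5l (chromosome 2 from 30471537 to 30474219) was at 8.02, 6.53 and 7.83 CPM in MSR1 KO and at 13.6, 16.0 and 13.1 CPM in MSR1 WT, a log2 difference of -0.94 (edgeR adjusted p = 0.018). Errfi1 (chromosome 4 from 150853919 to 150868892), which encodes a feedback inhibitor of the EGF receptor, was at 50.3, 58.3 and 54.5 against 89.7, 82.7 and 79.2 CPM, a log2 difference of -0.62 (edgeR adjusted p = 0.014). Both fell in MSR1 KO without overlap between the groups. Cyr61 (chromosome 3 from 145646976 to 145649981), which encodes the secreted matrix protein CCN1, was at 89.0, 99.7 and 91.4 against 153, 128 and 143 CPM, a log2 difference of -0.60 (edgeR adjusted p = 0.017). Npas4 had the largest log2 fold change of the list in size, -1.15, at 24 to 87 counts and with an adjusted p of 0.13 from edgeR. Of the 10 stromal markers, 3 (Pdgfra, Pdgfrb and Cxcl12) were called lower in MSR1 KO like Ier5l, Errfi1, Cyr61 and Dusp4. The other 7 were not called. Of these 7, Col3a1 (-0.65, edgeR adjusted p = 0.057), Col1a2 (-0.39), Postn (-0.365), Dcn (-0.31) and Col1a1 (-0.26) had values below 0. Thy1 (1.31) and Lum (0.46, at 4 to 52 counts) had values above 0. The median of the 10 stromal markers was -0.38. The part of stromal transcripts in the falls of Ier5l, Errfi1, Cyr61 and Dusp4 was not tested.

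Of the 8 inducible MAP kinase phosphatases, 1 was called and 3 had an unadjusted p under 0.05 in edgeR (2 higher and 1 lower). Dusp4, a nuclear phosphatase of MAP kinases and a relative of Dusp1, was called and fell the most of the called genes. It had 82, 83 and 82 counts in MSR1 KO and 199, 224 and 226 in MSR1 WT. The means were 2.04 ± 0.262 and 5.01 ± 0.406 CPM (SD, n = 3 each), a log2 difference of -1.29 ± 0.19 (SE, edgeR adjusted p = 0.017). Dusp4 lies on chromosome 8 from 34807297 to 34819894, which is 4.76 Mb from Msr1. DNA inherited together with the targeted allele and the loss of MSR1 itself cannot be told apart in this design. Dusp2 (0.65, adjusted p = 0.21) and Dusp14 (-0.60, adjusted p = 0.42) were not called.

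**Figure D4:**
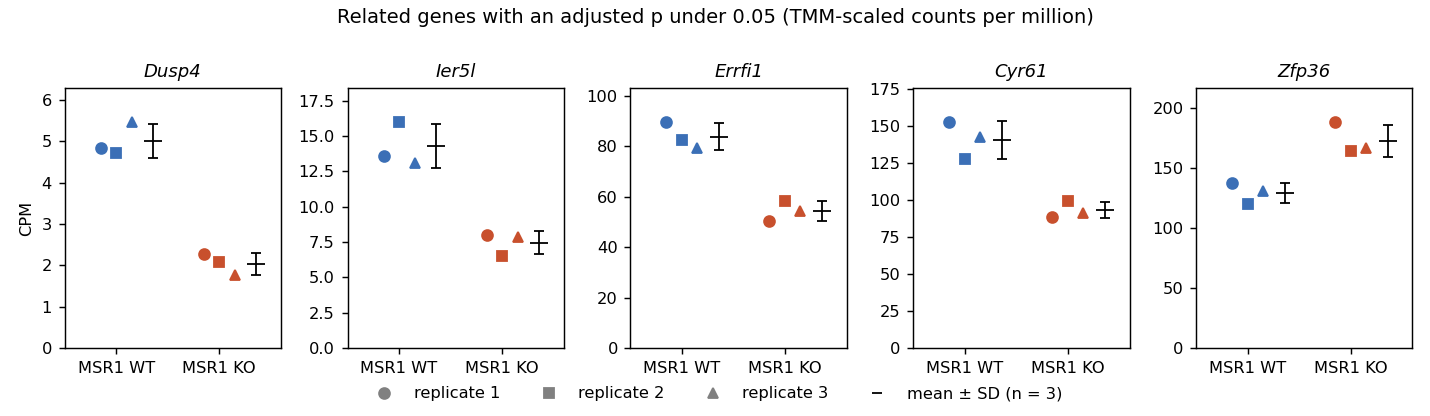
Level in CPM (y axis, from 0) of the 5 related genes with an adjusted p under 0.05 in the MSR1 WT (blue) and MSR1 KO (red) libraries, with black bars for the mean ± SD of 3 libraries. Dusp4, Ier5l, Errfi1 and Cyr61 are lower and Zfp36 is higher in every MSR1 KO library than in any MSR1 WT library.

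The regulators that act upstream of the immediate early genes gave 0 called genes of 19 in edgeR. An unadjusted p under 0.05 was found for 3 of them, beside 18.9% of all tested genes. The list held Srf (log2 fold change -0.14), the ternary complex factor Elk1 (-0.01), Creb1 (-0.04) and the kinases Mapk3 (-0.11) and Mapk14 (-0.08). The largest values were in Rps6ka3 (-0.59, adjusted p = 0.21), Mapk9 (0.43, adjusted p = 0.11) and Crem (0.38, adjusted p = 0.15). Rps6ka3 had 2781 to 2847 counts in MSR1 KO and 3559, 7115 and 3235 in MSR1 WT, so MSR1 WT replicate 2 set most of its value. mRNA levels do not show phosphorylation, by which these proteins act.

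Heat shock genes, which are switched on by HSF1 rather than by SRF or CREB, were set beside the immediate early genes. Of 10, 0 were called by edgeR and 1 had an unadjusted p under 0.05, beside 18.9% of all tested genes. Their log2 fold changes ran from -0.45 to 0.12. Hspa1b (-0.45), Hspa1a (-0.34) and Hspb1 (-0.30) had the largest values, and the median of the list was -0.08. Hspa1a and Hspa1b are near-identical copies whose reads may have been split or lost.

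**Figure D5:**
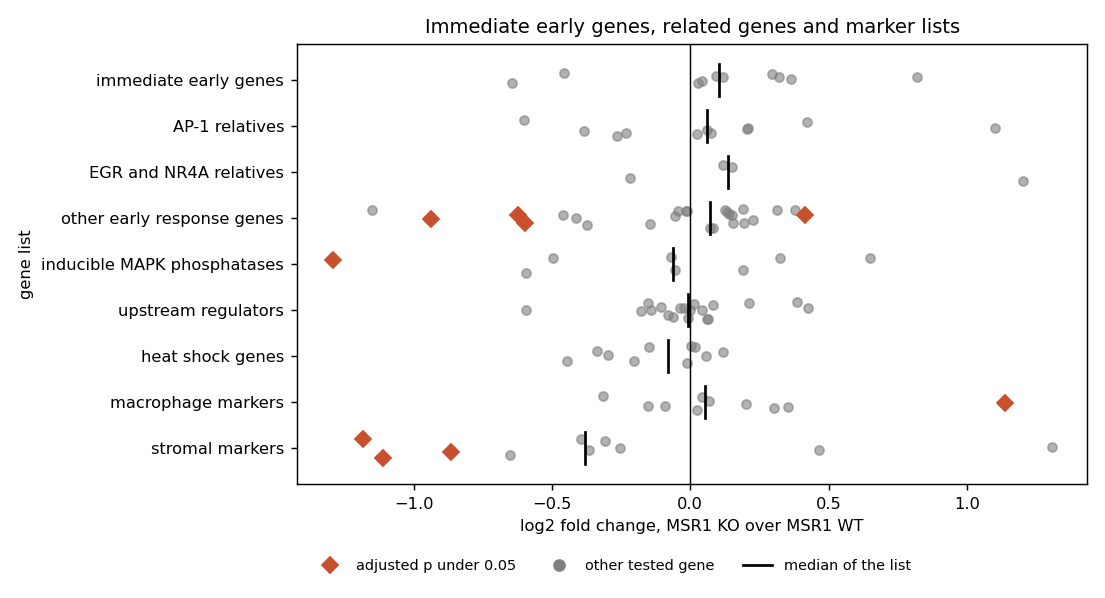
Log2 fold change of MSR1 KO over MSR1 WT (x axis) for the tested genes of each list (y axis), with red diamonds for genes at an adjusted p under 0.05 by edgeR, grey points for the others and black bars for the median. The immediate early genes hold no red diamond, and 5 of the 67 tested related genes do.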

How the data were processed

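The authors deposited raw counts per gene for 3 MSR1 KO and 3 MSR1 WT libraries in a single table. Its columns of counts divided by size factors and of the authors' own fold changes and p-values were not used. The methods name TopHat, whereas the submitters' processing notes list fastp 0.17.1, HISAT2 2.1.0 and DESeq2 1.18.1. FPKM appear in the methods, but what was deposited are counts. Neither the counter nor its strand handling nor the build is given in the sources used here. Positions are on GRCm38, since GENCODE M21 holds 52403 of the 52550 gene identifiers, 49909 of them with identical start and end.

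Counts were filtered with filterByExpr, scaled by TMM and tested with the quasi-likelihood test of edgeR 4.0.16 in R 4.3.3, with Benjamini-Hochberg adjustment over 16402 genes. Each standard error (SE) is the log2 difference divided by the root of its F value. Lengths were the union of GENCODE exons. The code was tested on simulated counts. Replicates of a genotype differed by more than counting noise (chi-square per degree of freedom 26.4 to 52.5). Whether they came from separate animals is not given in the labels, so p-values measure the spread between these libraries.

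The immediate early genes and all lists (AP-1 relatives, EGR and NR4A relatives, other early response genes, inducible MAP kinase phosphatases, upstream regulators, heat shock genes and 6 lists of cell type markers) were chosen with earlier results of these data known. Named beside the immediate early genes were the called genes of each list, up to 3 genes per list with the largest change, and up to 5 genes most like them. Other named members of the upstream and marker lists were chosen after their values were seen, and a few list members are not reported here by name. Of rows sharing a symbol, that with most counts was used. As alternatives, each library was left out in turn, the replicate number entered the model as a block, DESeq2 1.42.0 took the place of edgeR or gave it size factors, TMM was dropped, and the filter was either removed (a total above 0) or raised to 10 counts in all libraries.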

Additional observations from a re-analysis of the deposited data

How the results depend on the processing

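Under all 12 alternatives, 0 of the 10 immediate early genes had an adjusted p under 0.05, the lowest being 0.096 for Ier2. The direction of 8 genes held under every alternative, and that of Egr2 and Dusp1 did not. Dusp1 turned to -0.0022 with library size alone and ran from -0.064 to 0.11 with each library left out. Egr2 ran from -0.78 to 0.42, the latter without MSR1 WT replicate 1. The number of genes meeting the definition of a DEG as higher, 1 in all, ran from 0 to 1 with each library left out and was 0 without MSR1 KO replicates 2 or 3 or MSR1 WT replicate 1. The related genes called higher, 1 in all, were 5 with DESeq2, 2 with at least 10 counts in every library and 0 whichever library was left out. Those called lower, 4 in all, were 8 with DESeq2 and ran from 0 (without MSR1 KO replicate 1 or MSR1 WT replicate 1) to 5. Same-numbered libraries did not deviate together (correlations of -0.0261, 0.0187 and -0.0048), so no shared effect of the replicate number was seen. These values cannot show whether same-numbered libraries shared a day or a preparation, which the labels do not give. With the replicate number as a block, 0 related genes were called higher and 0 lower, with an adjusted p of 0.055 to 0.066 for the 5 genes called without it. Over all tested genes, the 369 higher and 436 lower calls became 694 and 792 with DESeq2, 237 and 288 without the filter, 314 and 516 with library size alone, 59 and 78 with the block, and 18 and 53 without MSR1 WT replicate 1. The 3 libraries per genotype and the counts of Fosb (10 to 32) and Egr3 (44 to 171) limit what could be detected.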

Other observations

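The genes whose libraries deviated most like the mean of the immediate early genes within each genotype were Zfp703 (Pearson r = 0.999), Mpp6 (0.993), Slc44a1 (0.993), Ndrg3 (0.988) and Rack1 (0.988), out of 9122 genes with a mean of at least 10 CPM. These r values cover 6 libraries that share their genotype means and are a description, with no test. Among 9122 genes, r values this high can arise by chance, so no link is drawn from them. The mean deviation that these genes follow was small, between -0.05 and 0.08 on the log2 scale. Its highest value was in MSR1 WT replicate 1, the library with the highest Egr2, which deviated there by 1.33 from its mean over the 6 libraries. In that library 3 of the 10 immediate early genes lay above their own mean, and the median deviation without Egr2 and Fosb was -0.11. The mean deviation there was thus not shared by most of the immediate early genes. Of the genes named by r, Slc44a1, a choline transporter, had an adjusted p under 0.05 between the genotypes (log2 fold change -0.55, adjusted p = 0.016 from edgeR). Rack1 was at 0.01.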
